A study of Homo sapiens with 30 samples.

Results

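The 41 genes described here make serine and glycine, run the folate and methionine cycles, import amino acids, or belong to the stress programme of the transcription factor ATF4. They were taken by symbol from a list, 8 of serine and glycine synthesis, 11 of the folate and methionine cycle, 8 amino-acid transporters and 14 ATF4 stress genes. The list was chosen with earlier results of these data known. Shares of members set beside shares of all genes are therefore a description and no test. All 41 were among the 18132 entries of the RNA-seq table. Among the 20582 entries counted by PRO-seq, members made up 40, with AMT unmatched.

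The cells were G401, an established line from a malignant rhabdoid tumour of the kidney, and DTMYC, its engineered derivative. DTMYC cells carry lentiviral MYC with an N-terminal HA-FKBP12F36V dTAG module, and their endogenous MYC was removed with CRISPR-Cas9. The compound dTAG47 marks proteins with this module for degradation, and DMSO is its solvent. RNA-seq compared DTMYC cells in 500 nM dTAG47, DTMYC cells in DMSO, parental G401 cells in 500 nM dTAG47 and parental G401 cells in DMSO, 3 libraries each at 24 h. In DTMYC cells only, ATAC-seq at 24 h had 3 dTAG47 and 3 DMSO libraries, PRO-seq at 4 h had 2 and 2, and MYC ChIP-seq at 4 h had 3 dTAG47 libraries and DMSO libraries 1 and 3. All groups shared the same serum-supplemented DMEM and passage range. The MYC of DTMYC cells comes from a virus and not from its own locus, and the labels do not say whether the line is 1 clone. No label says that replicates were separate cultures, so p-values measure the spread between these libraries, which may be technical.

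Cells build serine from a glycolytic intermediate in 3 steps, by PHGDH, PSAT1 and PSPH, and SHMT1 in the cytosol or SHMT2 in mitochondria turns serine into glycine and a carbon unit on folate. The MTHFD enzymes interconvert these folates for purine and thymidylate synthesis, and MTR passes a methyl group to homocysteine to remake methionine. ATF4 is a transcription factor whose translation rises when amino acids run short or the endoplasmic reticulum is stressed. Its known targets include serine synthesis enzymes, amino-acid transporters and stress genes. MYC is likewise known to bind many genes of amino-acid and nucleotide metabolism.

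RNA-seq libraries held 27854207 to 54633745 counts, and PRO-seq libraries 18209879 to 23256313 counts in gene bodies and 1216928 to 1632084 in promoter-proximal regions. MYC mRNA was higher in DTMYC than in parental cells, at 2.54 ± 0.09 (SE) on the log2 scale in DMSO (edgeR, adjusted p = 1.23e-10), and its log2 change with dTAG47, which acts on protein, was 0.05 in DTMYC cells. SMARCB1, the gene lost in rhabdoid tumours, was not analysed here for mRNA. Of 6 kidney tubule markers 2 and of 5 haematopoietic markers 1 passed the count filter. Parental DMSO library 3 stood apart from its group, deviating from the group mean with an SD of 0.355 over genes (log2 CPM), against 0.149 to 0.244 in the other 11 RNA-seq libraries. It was kept, and results are also given without it where they change. Levels are in CPM, counts scaled to each library's TMM-adjusted total, so every rise or fall is relative to the other genes. A change in RNA or nascent transcription shared by all genes would not show. In such bulk libraries fewer cells with a transcript and less of it per cell cannot be told apart.

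In DTMYC cells the members did not move as 1 block with 24 h of dTAG47. Of the 41, 10 fell, 2 rose and 29 did not pass the test (edgeR quasi-likelihood test, adjusted p under 0.05 over 13401 genes). Among all genes tested 4.44% fell and 4.27% rose, 8.71% in either direction, and the members' share that fell was 24.4%. The median log2 change was -0.12 over the members and 0.03 over all genes tested. Lack of overlap between libraries, given below for single genes, follows largely from this test in the genes that passed it. It was also seen in members that did not pass, and adds no support. The genes that fell included the mitochondrial serine and glycine enzymes SHMT2 and GLDC, the folate carrier SLC19A1 and the leucine transporter SLC7A5. SLC1A4, a carrier of serine and other small neutral amino acids, and the stress gene NUPR1 rose.

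**Figure D1:**
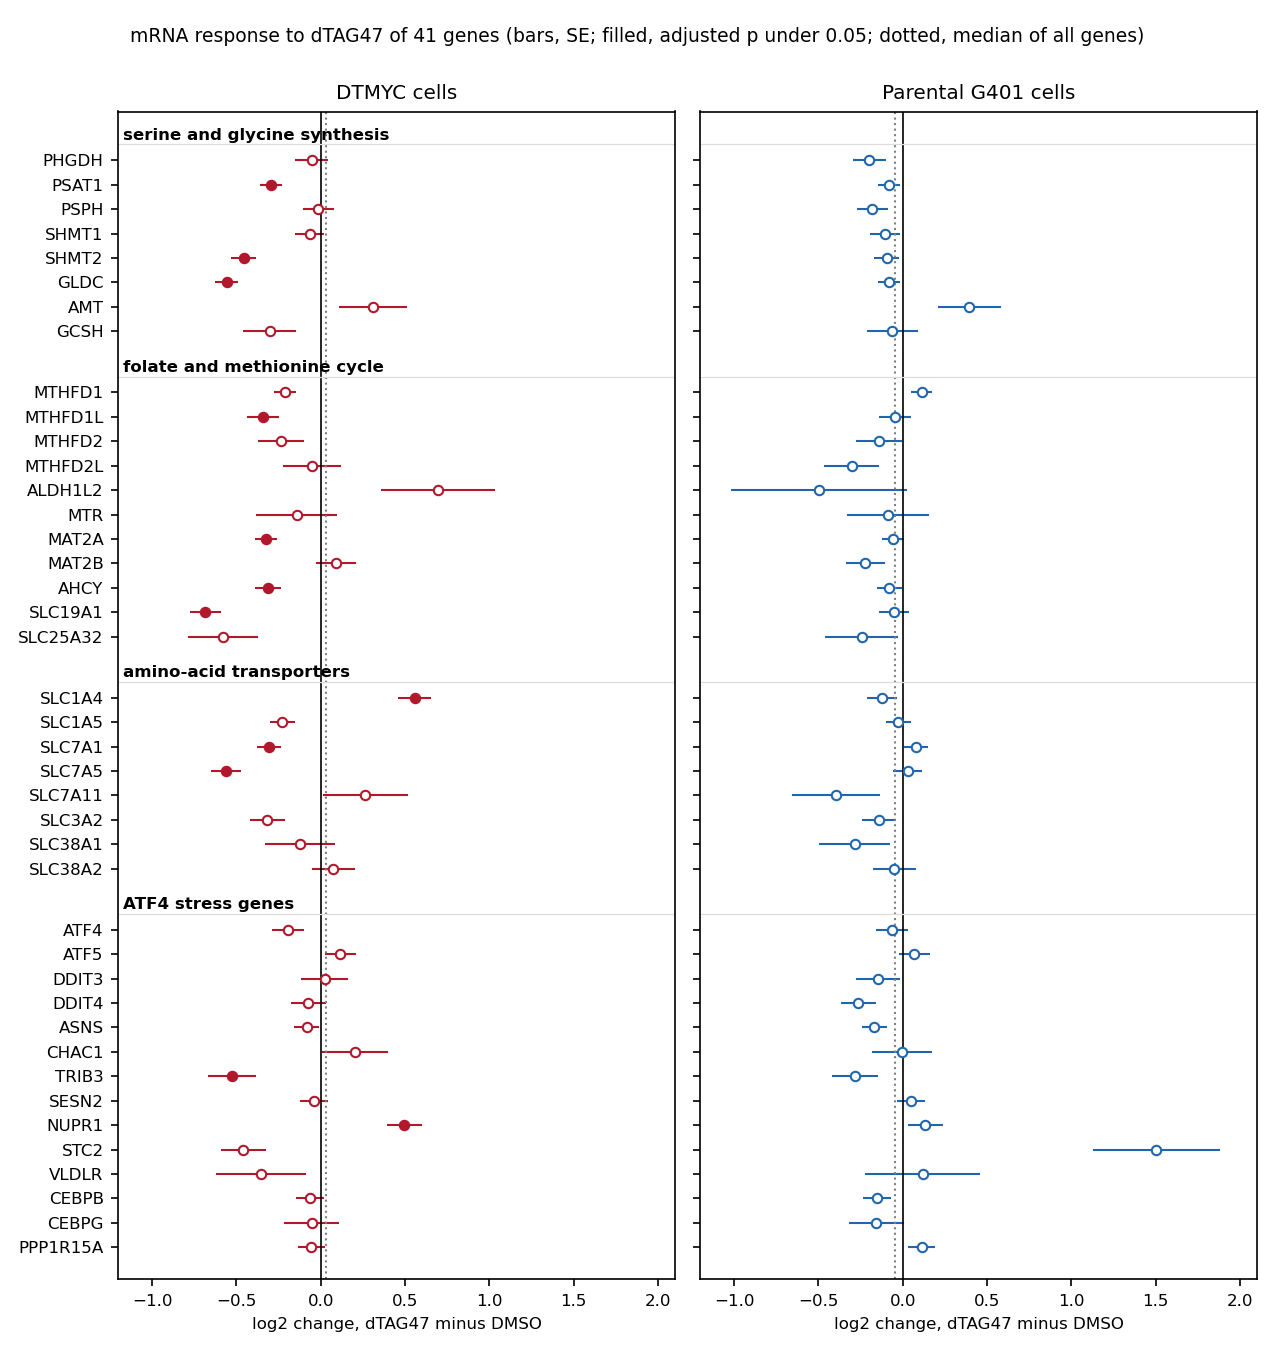
Log2 change of mRNA with 24 h of dTAG47 against DMSO for the 41 genes, DTMYC cells on the left and parental cells on the right; points are edgeR estimates, bars SE, filled points have an adjusted p under 0.05, and the dotted line is the median of all genes tested. In DTMYC cells 12 points are filled, with SLC19A1 at -0.68 the lowest of them, and in parental cells no point is filled.

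Of the 8 serine and glycine genes, 3 fell in DTMYC cells, none rose, and the list's median log2 change was -0.18. PSAT1, which makes phosphoserine, had 213, 220.1 and 219 CPM in dTAG47 libraries, against 261, 284 and 254 CPM in DMSO libraries. The 2 groups did not overlap. The fitted change was -0.29 ± 0.07 (SE) on the log2 scale (edgeR, adjusted p = 0.0188). SHMT2, the mitochondrial serine hydroxymethyltransferase (chr12:57623110-57628718 in hg19), had 118, 114 and 116 CPM in dTAG47 libraries, against 159.5, 153 and 164 CPM in DMSO libraries. All values in dTAG47 were under those in DMSO, with a log2 change of -0.46 ± 0.07 (SE) (edgeR, adjusted p = 0.00438). GLDC, the decarboxylase of the glycine cleavage system (chr9:6532464-6645650 in hg19), had 25.9, 26.6 and 26.6 CPM in dTAG47 libraries, against 38.9, 38.2 and 39.1 CPM in DMSO libraries. Its groups were far apart for their spread, and the log2 change was -0.56 ± 0.07 (SE) (edgeR, adjusted p = 0.00119). The first and last enzymes of serine synthesis, PHGDH and PSPH, and cytosolic SHMT1 had log2 changes of -0.05, -0.01 and -0.07 and did not pass the test. The other glycine cleavage genes GCSH and AMT had -0.30 and 0.31, with adjusted p of 0.274 and 0.401 (edgeR). PSAT1, PSPH, SHMT1, GLDC and GCSH have pseudogene copies and 62.6% of the exon bases of AMT lie under same-strand exons of other genes, so their counts are uncertain.

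In the folate and methionine cycle 4 of 11 genes fell, none rose, and the median log2 change was -0.24. SLC19A1, the reduced folate carrier of the plasma membrane (chr21:46913486-46964325 in hg19), had 65.03, 60.8 and 59.1 CPM in dTAG47 libraries, against 101, 93.7 and 102 CPM in DMSO libraries. The groups did not overlap, and its log2 change of -0.68 ± 0.09 (SE) was the lowest of the 41, with an adjusted p of 0.0016 (edgeR). MTHFD1L, the mitochondrial enzyme that releases formate, had 139.5, 132 and 134 CPM in dTAG47 libraries, against 175, 168 and 172 CPM in DMSO libraries. All dTAG47 libraries were lower, with a log2 change of -0.34 ± 0.10 (SE) (edgeR, adjusted p = 0.0452), near the threshold. MAT2A, which makes S-adenosylmethionine, had 297, 301 and 286 CPM in dTAG47 libraries, against 379.8, 368 and 359 CPM in DMSO libraries. The difference exceeded the spread within either group, at -0.32 ± 0.07 (SE) on the log2 scale (edgeR, adjusted p = 0.012). AHCY, which hydrolyses S-adenosylhomocysteine, had 318, 308 and 297 CPM in dTAG47 libraries, against 389.8, 355 and 402 CPM in DMSO libraries. Its groups were also separate, with a log2 change of -0.31 ± 0.08 (SE) (edgeR, adjusted p = 0.0247).

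The remaining 7 folate and methionine genes did not pass. MTHFD1, the cytosolic trifunctional enzyme, was at -0.21 with an adjusted p of 0.0576, and its mitochondrial relative MTHFD2 at -0.24 with 0.335 (edgeR). SLC25A32, the mitochondrial folate carrier, had 50.4, 52.8 and 54.7 CPM in dTAG47 libraries, against 74.3, 88.3 and 73.4 CPM in DMSO libraries. These groups did not overlap either. At a log2 change of -0.58 ± 0.21 (SE) its adjusted p was 0.106 in the fit of all 12 libraries (edgeR). Without parental DMSO library 3, which is in neither group, the change was -0.61 and the adjusted p 4.21e-06 (edgeR). The fit without that library called 29.2% of all genes in this comparison, against 8.71% in the full fit. ALDH1L2, a mitochondrial folate dehydrogenase, had 3.59, 3.81 and 3.62 CPM in dTAG47 libraries, against 2.09, 2.63 and 2.09 CPM in DMSO libraries. It was higher in every dTAG47 library, with an adjusted p of 0.24 in all libraries and 0.00265 without that library. MTR, MTHFD2L and MAT2B, a regulatory partner of MAT2A, lay between -0.14 and 0.09 on the log2 scale. AHCY and MTHFD2 have 7 pseudogenes each and MAT2A and MTHFD1 1 each, and 69.7% of the exon bases of SLC25A32 lie under a same-strand exon of another gene, so their counts are uncertain. Antisense exons cover 13.9% of the exon bases of SLC19A1 and over 10% of those of MTHFD1, MTHFD2, MAT2A and SLC25A32, whose counts are uncertain too, since strandedness of the counting is not given in the sources used here.

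Of the 8 amino-acid transporters 2 fell and 1 rose, and the median log2 change was -0.18. SLC7A5, the LAT1 carrier of leucine and other large neutral amino acids (chr16:87863629-87903094 in hg19), had 459, 439.9 and 407 CPM in dTAG47 libraries, against 652, 622 and 654 CPM in DMSO libraries. All dTAG47 libraries lay below all DMSO libraries, and the log2 change was -0.56 ± 0.09 (SE) (edgeR, adjusted p = 0.00348). SLC7A1, a carrier of arginine and lysine, had 216, 213 and 209 CPM in dTAG47 libraries, against 268, 260.5 and 260.4 CPM in DMSO libraries. The groups were separate, with a log2 change of -0.31 ± 0.07 (SE) (edgeR, adjusted p = 0.0223). SLC1A4, the ASCT1 carrier (chr2:65215611-65250999 in hg19), had 9.35, 9.73 and 9.33 CPM in dTAG47 libraries, against 6.37, 6.63 and 6.31 CPM in DMSO libraries. Here every dTAG47 library was the higher, with a log2 change of 0.56 ± 0.10 (SE) (edgeR, adjusted p = 0.00588). SLC3A2, the heavy chain that pairs with SLC7A5 and SLC7A11, was at -0.32 and the glutamine carrier SLC1A5 at -0.23 on the log2 scale. Both had an adjusted p of 0.077 (edgeR) and values in dTAG47 libraries below all DMSO libraries. The cystine carrier SLC7A11 was at 0.26, and the glutamine carriers SLC38A1 and SLC38A2 at -0.12 and 0.08, none past the test. SLC7A5 has 2 pseudogenes named after it in the annotation, and 23.8% of the exon bases of SLC1A5 lie under antisense exons, so the counts of both are uncertain.

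Among the 14 ATF4 stress genes 1 fell and 1 rose, and the median log2 change was -0.06. TRIB3, a pseudokinase induced by stress, had 10.97, 10.6 and 9.79 CPM in dTAG47 libraries, against 16.6, 13.2 and 15.3 CPM in DMSO libraries. The groups did not overlap, and the log2 change was -0.53 ± 0.14 (SE) (edgeR, adjusted p = 0.0391). NUPR1, a small stress-induced nuclear protein, had 139, 134 and 129 CPM in dTAG47 libraries, against 96.7, 87.8 and 101 CPM in DMSO libraries. It rose by 0.50 ± 0.10 (SE) on the log2 scale (edgeR, adjusted p = 0.0132), and no dTAG47 library reached down to the DMSO range. ATF4 itself had 202, 202 and 194 CPM in dTAG47 libraries, against 235, 213 and 236 CPM in DMSO libraries. Its mRNA groups were separate, at a log2 change of -0.19 ± 0.09 (SE), but the adjusted p was 0.241 (edgeR). Without parental DMSO library 3 the adjusted p was 0.00629 (edgeR), in a fit that called 29.2% of all genes. ATF4 is regulated mainly in translation, which mRNA counts do not show. Counts of ATF4, with 4 pseudogenes, and of NUPR1, with 16.5% of its exon bases under a same-strand exon of another gene, are uncertain.

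The other ATF4 stress genes did not pass in DTMYC cells. ASNS, which makes asparagine, was at -0.08, uncertain for its 5 pseudogenes and 49.3% of exon bases under a same-strand exon of another gene, and the transcription factors ATF5, CEBPB, CEBPG and DDIT3 lay between -0.06 and 0.12 on the log2 scale. DDIT4 and SESN2, inhibitors of mTORC1 signalling, were at -0.07 and -0.04. PPP1R15A, which directs dephosphorylation of eIF2, was at -0.06, and CHAC1, which breaks down glutathione, at 0.20 with libraries of 4.52, 4.19 and 2.38 CPM in dTAG47 and 3.31, 3.25 and 3.13 CPM in DMSO. STC2, a secreted glycoprotein, had an adjusted p of 0.0546 at -0.46, and VLDLR, a lipoprotein receptor, one of 0.473 at -0.35 (edgeR). Counts of DDIT3, ATF5 and CEBPB are uncertain, with 31.6%, 19.5% and 12.6% of their exon bases under antisense exons.

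**Figure D2:**
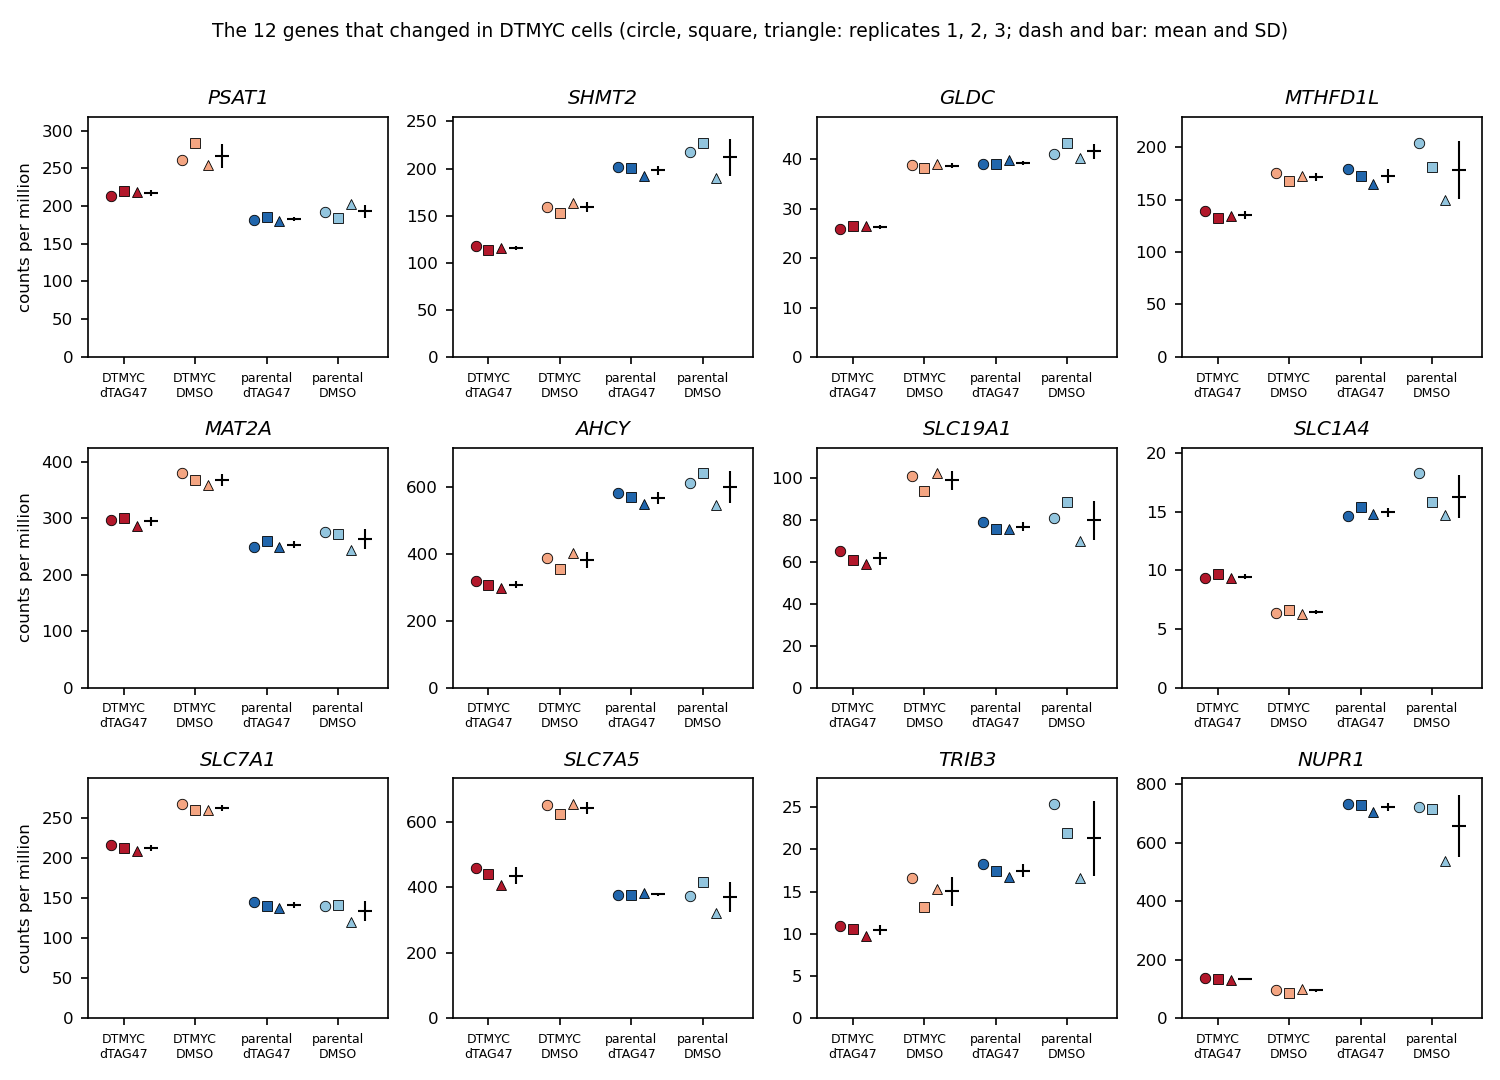
CPM in each library of the 12 genes that changed in DTMYC cells, by group; symbols are replicates 1, 2 and 3, and the dash and bar are the mean and SD. In each panel the DTMYC dTAG47 libraries do not overlap the DTMYC DMSO libraries, which follows largely from choosing these genes by a test on the same libraries. Parental DMSO library 3, the light blue triangle, is the lowest of its group for NUPR1 at 537 CPM.

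Calls in DTMYC cells depended on the libraries in the fit. Leaving out any 1 DTMYC library left 5 to 8 members called, and SHMT2, GLDC, SLC19A1, SLC7A5 and SLC1A4 were called in all 12 fits that left out 1 library. TRIB3 lost its call in 8 of those 12 fits, among them each one without a parental dTAG47 library, and MTHFD1L in 9. Without parental DMSO library 3, 21 members were called, 18 lower and 3 higher, while 29.2% of all genes were called, 16.6% lower and 12.7% higher. The median log2 change was then -0.16 over the members and 0.00 over all genes. The added genes were GCSH, MTHFD1, MTHFD2, SLC25A32, SLC1A5, SLC3A2, ATF4 and STC2, lower, and ALDH1L2, higher, and all 12 of the full fit were among the 21.

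In parental cells, which carry no tagged MYC, none of the 41 genes passed the test with dTAG47, 0.127% of all genes did, 0.104% higher and 0.0224% lower, and 3 members, 7.32%, had an unadjusted p under 0.05, against 15.5% of all genes (edgeR). DESeq2 also called none. The median log2 change of the members was -0.08, against -0.05 over all genes. GLDC had 39.05, 39.1 and 39.9 CPM in parental dTAG47 libraries, against 41.1, 43.4 and 40.4 CPM in parental DMSO libraries, and SLC7A5 had 377, 375 and 383 CPM in parental dTAG47 libraries, against 374, 416 and 322 CPM in parental DMSO libraries. These groups overlapped for SLC7A5, where the DMSO libraries spread widely around the dTAG47 values, and lay just apart for GLDC. Without parental DMSO library 3, 9 members passed, at a background of 20.1% of all genes, 9.17% higher and 10.9% lower. MTR was then higher, at a log2 change of 0.39, and PHGDH (-0.31), PSPH (-0.28), SHMT1 (-0.22), SHMT2 (-0.18), SLC3A2 (-0.27), DDIT4 (-0.37), TRIB3 (-0.44) and CEBPB (-0.22) were lower.

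The response to dTAG47 differed between the lines for 5 members, a test of the DTMYC response minus the parental response that 1.19% of all genes passed, 0.597% higher and 0.59% lower. The difference was -0.47 ± 0.10 (SE) for GLDC, -0.63 ± 0.13 (SE) for SLC19A1 and -0.59 ± 0.12 (SE) for SLC7A5 on the log2 scale. Each of these responses was lower in DTMYC than in parental cells, with adjusted p of 0.0396, 0.0396 and 0.0417 (edgeR). SLC1A4 differed the other way, at 0.68 ± 0.13 (SE) (edgeR, adjusted p = 0.0384). In parental cells SLC19A1 had 79.3, 75.8 and 75.6 CPM in dTAG47 libraries, against 80.95, 88.5 and 69.9 CPM in DMSO libraries. SLC1A4 had 14.7, 15.4 and 14.8 CPM in parental dTAG47 libraries, against 18.3, 15.9 and 14.7 CPM in parental DMSO libraries. The parental groups of both genes overlapped.

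STC2 was the 5th, at -1.96 ± 0.40 (SE) (edgeR, adjusted p = 0.0396). It had 146, 156 and 116 counts in DTMYC dTAG47 libraries, against 202, 200 and 210 counts in DTMYC DMSO libraries. In parental cells it had 16, 8 and 6 counts in dTAG47 libraries, against 5, 2 and 3 counts in DMSO libraries. The parental ratio of dTAG47 to DMSO, scaled to library totals, was 2.995 (1.425 to 6.868, exact 95% interval for counting error only), and so few parental counts limit this difference. All 5 calls were lost when any 1 DTMYC library or any 1 parental dTAG47 library was left out, and 15 members passed without parental DMSO library 3, 13 lower and 2 higher, at 17.9% of all genes, 9.58% lower and 8.3% higher. 

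DTMYC and parental cells differed at most members whether or not dTAG47 was present, as did most of the genome. In DMSO 32 of the 41 genes differed, 17 higher and 15 lower in DTMYC cells, while 73.3% of all genes did, 36% higher and 37.3% lower. In dTAG47 the count was 34, 16 higher and 18 lower, beside 76.4% of all genes, 37.4% higher and 38.9% lower. Without parental DMSO library 3 the counts were 34 in DMSO, 18 higher and 16 lower, and 38 in dTAG47, 17 higher and 21 lower. Of all genes 81.4% then differed in DMSO, 40.3% higher and 41.1% lower, and 82.3% in dTAG47, 39.1% higher and 43.2% lower. The share of members called was thus near that of all genes. The 2 comparisons use different libraries of the same 2 lines, and the line, the loss of its own MYC locus and the viral MYC cannot be told apart.

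**Figure D3:**
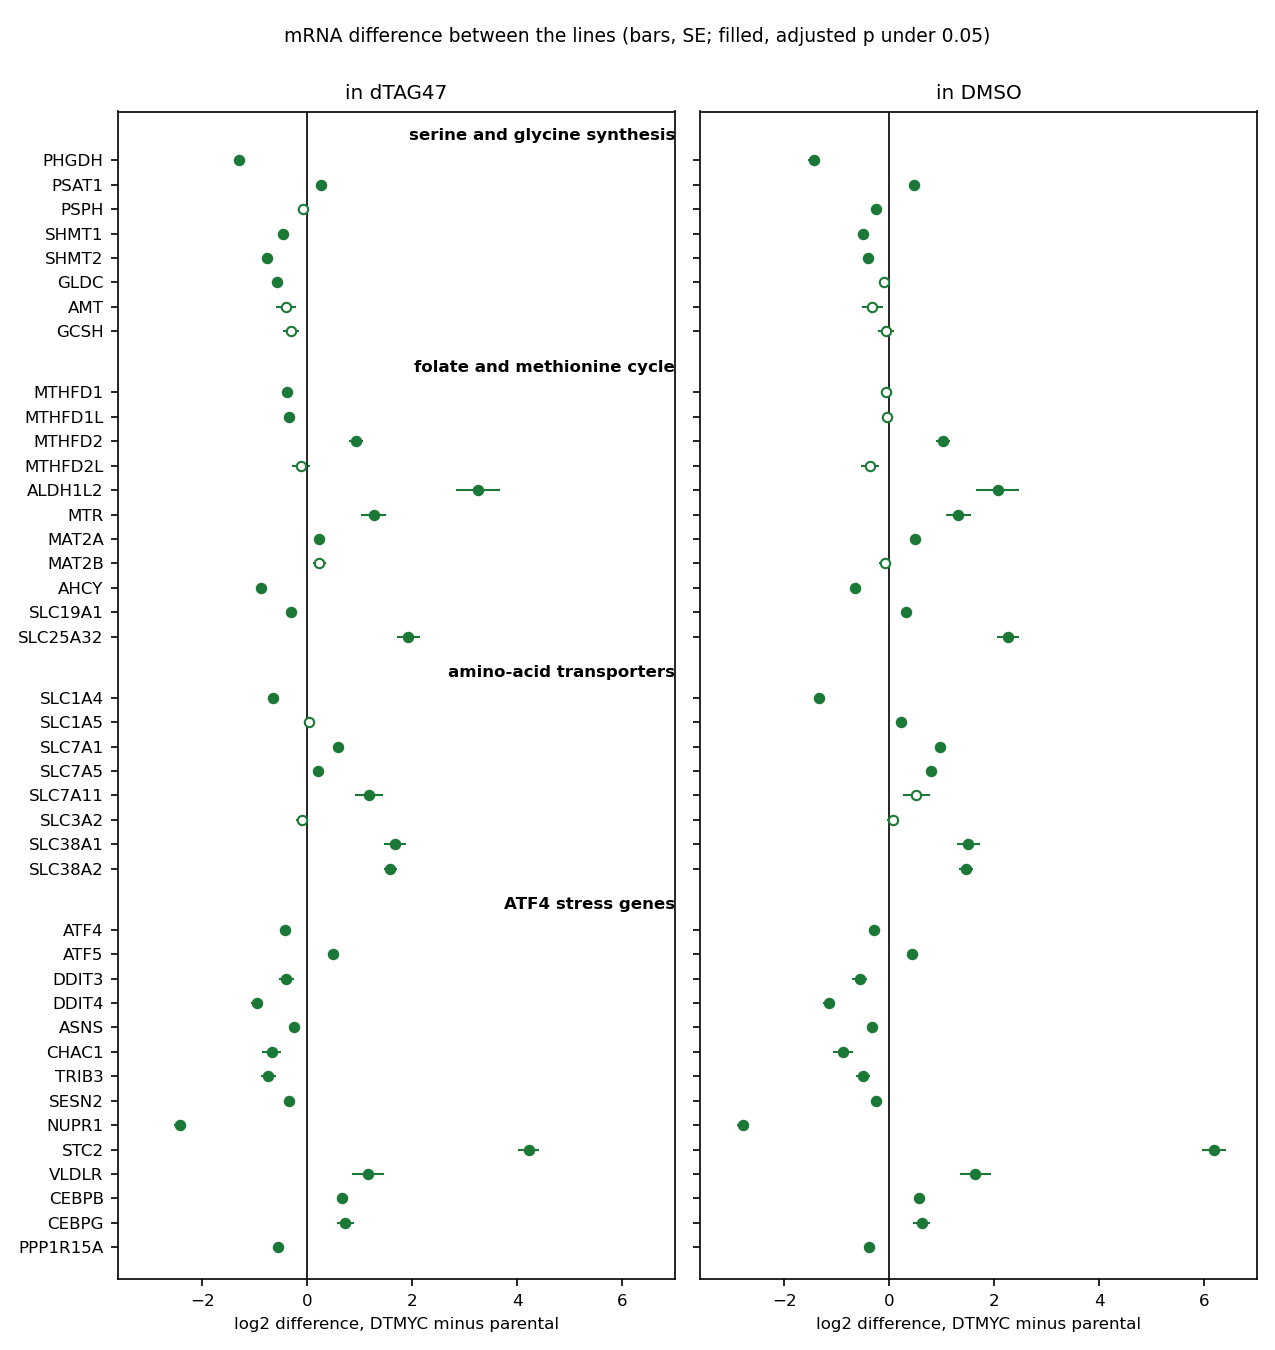
Log2 difference of mRNA, DTMYC minus parental cells, for the 41 genes in dTAG47 on the left and in DMSO on the right; points are edgeR estimates, bars SE, and filled points have an adjusted p under 0.05. STC2 lies farthest right and NUPR1 farthest left in both panels, at 6.17 and -2.79 in DMSO.

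Serine synthesis enzymes differed between the lines in both directions. PHGDH, which commits glycolytic carbon to serine, had 136, 124 and 132 CPM in DTMYC DMSO libraries, against 402, 359 and 302 CPM in parental DMSO libraries. The lines were far apart, and the log2 difference was -1.44 ± 0.10 (SE) (edgeR, adjusted p = 6.67e-08). PSAT1 averaged 266 ± 15.8 CPM in DTMYC cells and 193 ± 8.92 CPM in parental cells in DMSO (SD, n = 3 each), higher in DTMYC cells. SHMT1, SHMT2 and PSPH were lower in DTMYC cells, at -0.50, -0.41 and -0.25 on the log2 scale. GLDC did not pass in DMSO, at -0.10, and was lower in DTMYC cells in dTAG47, at -0.58 ± 0.07 (SE) (edgeR, adjusted p = 8.56e-06).

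In the folate and methionine cycle 6 of 11 genes were higher and 1 lower in DTMYC cells in DMSO. SLC25A32 averaged 78.7 ± 8.37 CPM in DTMYC cells and 16.5 ± 6.99 CPM in parental cells (SD, n = 3 each), a log2 difference of 2.26 ± 0.22 (SE) (edgeR, adjusted p = 1.4e-06). For this gene the parental libraries had 11.97, 12.9 and 24.5 CPM, with library 3 the highest. ALDH1L2 (2.06), MTR (1.31), MTHFD2 (1.02), MAT2A (0.49) and SLC19A1 (0.31) were also higher on the log2 scale, and AHCY was lower at -0.65. Library 3 was likewise the highest parental DMSO library for ALDH1L2, with 0.213, 0.256 and 1.17 CPM, and for MTR, with 44.05, 44.3 and 98.1 CPM. Without library 3 the differences were 2.65 for SLC25A32, 3.23 for ALDH1L2 and 1.79 for MTR. SLC19A1 changed side with the compound, being lower in DTMYC cells in dTAG47 at -0.32 ± 0.09 (SE) (edgeR, adjusted p = 0.00593).

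Among the transporters, 5 of 8 were higher and SLC1A4 was lower in DTMYC cells in DMSO. SLC38A2 averaged 685 ± 74.1 CPM in DTMYC cells and 249.6 ± 49.3 CPM in parental cells, and SLC38A1 484 ± 21.9 CPM in DTMYC cells and 171 ± 72.8 CPM in parental cells (SD, n = 3 each). In parental DMSO library 3 SLC38A1 stood at the top of its group, with 127, 131 and 255 CPM in libraries 1 to 3. The log2 differences were 1.46 for SLC38A2 and 1.504 for SLC38A1, followed by SLC7A1 at 0.97, SLC7A5 at 0.79 and SLC1A5 at 0.23. SLC7A5 remained higher in dTAG47, but only at 0.20 ± 0.09 (SE) (edgeR, adjusted p = 0.0475), a call lost in 9 of the 12 fits without 1 library. SLC1A4 was lower in DTMYC cells at -1.34 ± 0.10 (SE) in DMSO and -0.66 ± 0.09 (SE) in dTAG47 on the log2 scale.

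The ATF4 stress genes divided into 5 that were higher and 9 that were lower in DTMYC cells in DMSO, all 14 past the test. Of all genes 73.3% passed, 36% higher and 37.3% lower. STC2 was higher, with 612 counts over the 3 DTMYC DMSO libraries and 10 over the 3 parental DMSO libraries. The ratio scaled to library totals was 76.5 (41.3 to 160.4, exact 95% interval for counting error only, without the spread between libraries). NUPR1 was lower, with 96.7, 87.8 and 101 CPM in DTMYC DMSO libraries, against 721, 716 and 537 CPM in parental DMSO libraries. No library of either line came near the other line, and the log2 difference was -2.79 ± 0.11 (SE) (edgeR, adjusted p = 3.76e-10). DDIT4 (-1.15), CHAC1 (-0.88), DDIT3 (-0.57), TRIB3 (-0.50), PPP1R15A (-0.39), ASNS (-0.33), ATF4 (-0.29) and SESN2 (-0.26) were lower too. Libraries of the lines overlapped for ATF4 and TRIB3, and ATF4 and SESN2 each kept the call in 15 of 18 alternative fits. VLDLR, CEBPG, CEBPB and ATF5 were higher, at 1.64, 0.62, 0.57 and 0.44.

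Levels of different genes were compared as CPM per 1000 bases of gene length. In DTMYC cells in DMSO SLC7A5 was highest at 136 ± 3.79, followed by PSAT1 at 122 ± 7.21, SLC38A2 at 104 ± 11.2, SLC1A5 at 101 ± 4.92 and AHCY at 98.2 ± 6.32 (SD, n = 3). The levels of SLC38A2, SLC1A5 and AHCY lay within 1 SD of each other. VLDLR, ALDH1L2 and MTHFD2L were the lowest, at 0.1099 ± 0.0116, 0.267 ± 0.0366 and 0.316 ± 0.0412. In parental cells in DMSO NUPR1 led at 599.8 ± 95.5, against 86.7 ± 6.07 in DTMYC cells in DMSO.

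PRO-seq counts engaged RNA polymerases, and it was done in DTMYC cells after 4 h. No member passed in gene bodies (0 of 39 tested, edgeR), and 0% of all genes did. An unadjusted p under 0.05 was found for 14 of the 39, 35.9%, against 1298 of 13397 genes, 9.69%, and DESeq2 called 2 members and 67 genes. The median log2 change was -0.18 over the members and 0.02 over all genes. AHCY had 127 and 131 gene body CPM in dTAG47 libraries, against 184 and 175 in DMSO libraries. SLC7A5 had 113 and 112 gene body CPM in dTAG47 libraries, against 163 and 149 in DMSO libraries. SLC19A1 had 40.9 and 41.1 gene body CPM in dTAG47 libraries, against 69.8 and 58.2 in DMSO libraries. These 3 genes were picked for the smallest p of the members. Their groups did not overlap, which with 2 libraries each and such a choice adds no support. Their log2 changes were -0.48 for AHCY, -0.48 for SLC7A5 and -0.64 for SLC19A1, each with an adjusted p of 0.389 (edgeR).

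In promoter-proximal regions none of 36 members tested passed, at 0% of all genes, and 6, 16.7%, had an unadjusted p under 0.05, against 661 of 10226 genes, 6.46% (edgeR). DESeq2 called no member and 2 genes. SHMT2 had 33.1 and 36.8 promoter-proximal CPM in dTAG47 libraries, against 52.5 and 62.6 in DMSO libraries. PSAT1 had 79.4 and 117 promoter-proximal CPM in dTAG47 libraries, against 126 and 161 in DMSO libraries. PSPH had 195 and 224 promoter-proximal CPM in dTAG47 libraries, against 262 and 285 in DMSO libraries. All 3 make serine or use it, and their log2 changes of -0.72, -0.54 and -0.38 had adjusted p of 0.661, 0.707 and 0.752 (edgeR). The promoter-proximal change minus the gene body change, a measure of pausing, passed in none of 36 members at 0% of all genes, and no member had an unadjusted p under 0.05 (edgeR). The median of this measure was -0.23 over the members and -0.17 over all genes on the log2 scale, so values below 0 were common. Its smallest p belonged to PSAT1, ASNS and SHMT2, at -0.45, -0.58 and -0.48 on the log2 scale. ASNS had 5.79 and 17.3 promoter-proximal CPM in dTAG47 libraries, against 18.4 and 20.7 in DMSO libraries, so its dTAG47 libraries differed from each other more than its groups did.

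The nascent changes at 4 h and the mRNA changes at 24 h mostly had the same sign. Across 39 members Pearson's r was 0.72 and Spearman's rho 0.74, and across the 11281 genes tested in both they were 0.53 and 0.63. Genes are not independent replicates and share these libraries, so no p is given. Of the 39 members 26 were below 0 and 8 above 0 in both. Of the 11281 genes 3709 were below 0 and 4766 above 0 in both, so a shared sign was common over all genes too. TRIB3 was an exception among the 12 changed genes, with a gene body log2 change of 0.26 ± 0.23 (SE) and an mRNA change of -0.53, while SLC1A4 and NUPR1 were above 0 in both, with gene body changes of 0.44 and 0.39.

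**Figure D4:**
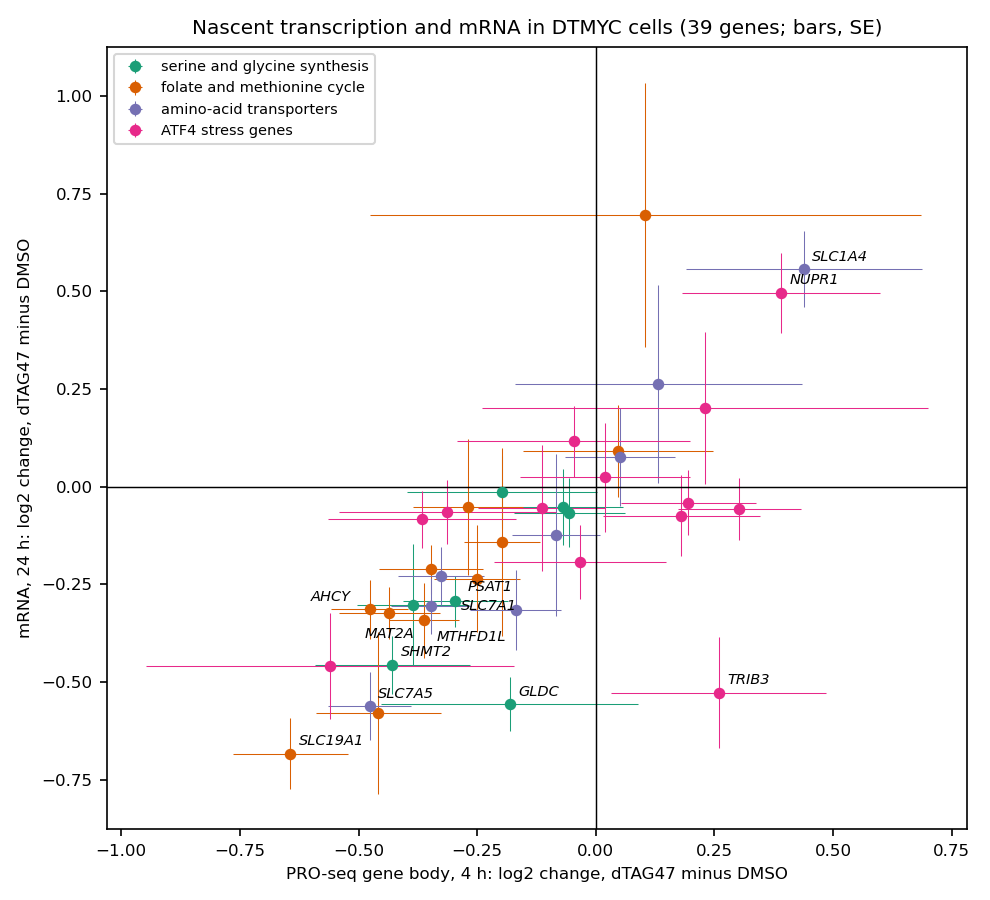
Log2 change in PRO-seq gene body counts at 4 h (horizontal) against log2 change of mRNA at 24 h (vertical) in DTMYC cells, dTAG47 minus DMSO, for 39 genes; bars are SE, colours are the 4 lists, and the 12 genes called for mRNA are named. SLC19A1 lies lowest on both axes at -0.64 and -0.68, and TRIB3 lies right of 0 but below it.

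MYC ChIP-seq peaks, called by the authors for each library alone, lay within 1000 bases of an annotated start site of 10 members in both DMSO libraries, or 24.4%, against 6.62% of 17120 genes. These were PSPH and GCSH of serine and glycine metabolism, MTHFD2 and MAT2A of the folate and methionine cycle, the transporters SLC7A1, SLC7A5, SLC3A2, SLC38A1 and SLC38A2, and ATF4. Another 12 had a peak in DMSO library 1 alone, and 19 in neither. The 17120 genes include ones below the RNA-seq count filter, which every member passed, so the shares of members and of all genes have unlike backgrounds. With dTAG47, library 1 had peaks at MAT2A, AHCY, SLC3A2 and ATF4, library 2 at none, and library 3 at MAT2A and SLC3A2. The lists also differed in length, with 408, 7 and 193 peaks in dTAG47 libraries, against 4010 and 1519 in DMSO libraries 1 and 3, and the depth behind them is unknown. Scores rank peaks only within their own list, so those that follow do not measure a change in MYC occupancy. The MAT2A peak had an authors' score of 91 in dTAG47 library 1 and 112 in dTAG47 library 3. In DMSO libraries 1 and 3 it had 481 and 311. ATF4 had a score of 59 in dTAG47 library 1, against 345 and 22 in DMSO libraries 1 and 3, and SLC7A5 had no peak with dTAG47, against scores of 197 and 42 in DMSO. The labels name a MYC antibody, whereas the names of the peak lists give HA, the tag of the fusion protein.

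**Figure D5:**
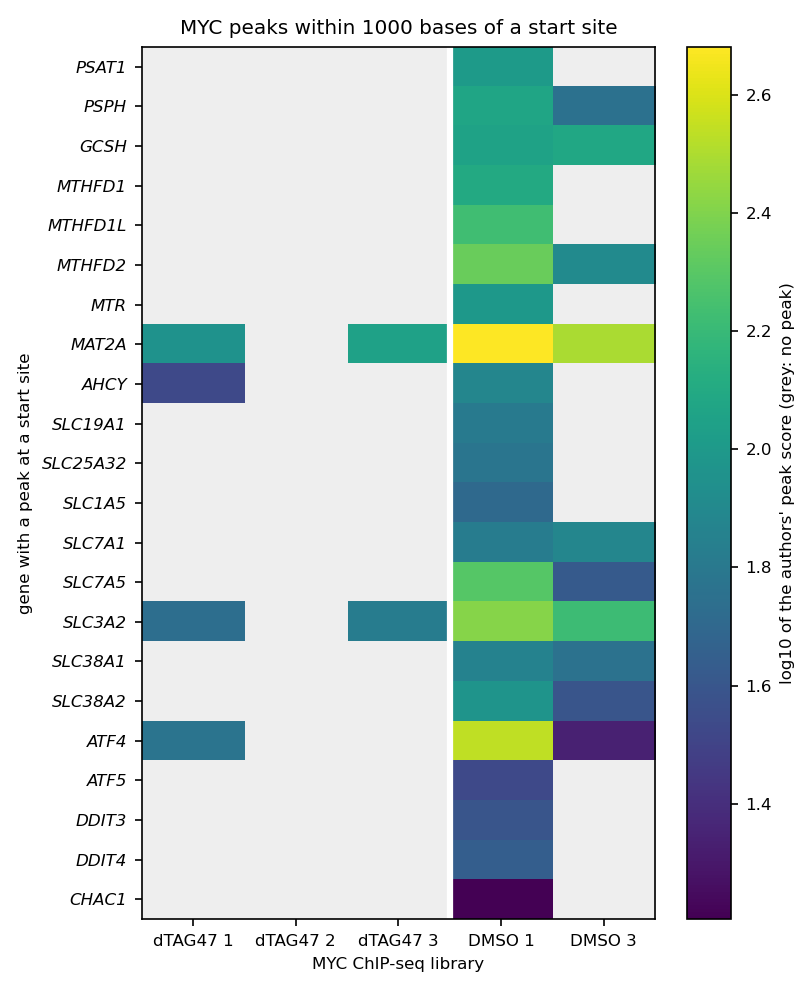
MYC ChIP-seq peaks at start sites of the 22 members that had one in any library, dTAG47 libraries on the left and DMSO libraries on the right; colour is the log10 of the authors' peak score and grey means no peak. In DMSO library 1 MAT2A has the highest score among the members, 481, and scores rank peaks only within their own list.

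Genes that fell were found in every class of MYC peak. Of the 10 members with a peak in both, 3 fell in DTMYC cells (MAT2A, SLC7A1 and SLC7A5), 30.0% against 15.7% of all tested genes with such a peak. Of the 12 with a peak in DMSO library 1 alone, 4 fell (PSAT1, MTHFD1L, AHCY and SLC19A1), 33.3% against 8.14% of all tested genes with a peak in just 1 DMSO library, either of them. Of the 19 with neither, 3 fell (SHMT2, GLDC and TRIB3), 15.8% against 2.36%, and both genes that rose were in this class. The median log2 changes of the 3 classes of members were -0.27, -0.22 and -0.05, against -0.14, -0.04 and 0.07 for all genes tested.

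The motif CACGTG, the E-box that MYC with its partner MAX is known to bind, is a palindrome and so reads the same on both strands. It occurred in 5 of the 10 members' MYC regions, 50%, against 60.8% of 919 such regions of all genes, with median region lengths of 1178.5 and 765 bases. The sites are shown because they are the sequence under the peaks, each 30 bases 5′ to 3′ on the gene's strand in GRCh37, with the motif in capitals.

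ATF4, chr22:39916470-39916499 (+ strand): ggaggagacggtCACGTGgtcgcggcggaa
MAT2A, chr2:85766919-85766948 (+ strand): tgcagcggcgacCACGTGtttgccgcatgt
GCSH, chr16:81129704-81129733 (- strand): aagcgcggcgggCACGTGggcggctgctcc
PSPH, chr7:56118743-56118772 (- strand): gggattcagtaaCACGTGgtattttacttt
SLC7A5, chr16:87902132-87902161 (- strand): ttgcgtggcaccCACGTGgagtaactgagc
SLC7A5, chr16:87902321-87902350 (- strand): ggtcccagaaacCACGTGcgtttctttcat
SLC7A5, chr16:87903226-87903255 (- strand): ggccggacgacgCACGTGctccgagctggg

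The ATF4 site is 83 bases before and the MAT2A site 168 bases after the nearest annotated start, both in untranslated exon sequence. The GCSH and PSPH sites lie in introns, 50 and 224 bases after a start. Of the 3 SLC7A5 sites 2 are intronic, 967 and 778 bases after the nearest start, and 1 lies outside the gene, 127 bases before it. The regions of MTHFD2, SLC7A1, SLC3A2, SLC38A1 and SLC38A2 held none of these letters. A match is a description of the sequence and not a measured binding site.

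In RefSeq promoters, the 250 bases before to 50 after a start in GRCh38.p14, 35 members had an entry, some with several starts, and a gene was counted if any of its promoters held the motif. CACGTG was found in 6 of them, 17.1%, against 8.72% of 27058 genes (ATF4, MTHFD1, MTHFD1L, SLC19A1, SLC1A5 and SLC7A5). TGATGNAA, searched on both strands as the core of the C/EBP-ATF response element that ATF4 is known to bind, was found in 9, 25.7%, against 4.48% of all these genes. Those were ASNS, CEBPG, CHAC1, MTHFD1L, SLC1A4, SLC1A5, SLC38A1, SLC3A2 and SLC7A1. The member list holds known ATF4 targets by design, and the background includes genes not tested here, so these shares are a description and no test. The matches of SLC1A4, which rose, of ASNS and CEBPG, which did not pass the test, and of SLC7A1 and MTHFD1L, which fell, are shown in 30-base windows, 5′ to 3′ on the gene's strand in GRCh38.p14 with the match in capitals. That of SLC1A4 is on the opposite strand.

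SLC1A4, chr2:64989381-64989410 (+ strand): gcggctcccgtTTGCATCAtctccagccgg
ASNS, chr7:97872458-97872487 (- strand): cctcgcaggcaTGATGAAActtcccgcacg
CEBPG, chr19:33374060-33374089 (+ strand): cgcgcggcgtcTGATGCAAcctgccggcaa
SLC7A1, chr13:29595663-29595692 (- strand): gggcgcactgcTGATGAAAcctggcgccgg
MTHFD1L, chr6:150866346-150866375 (+ strand): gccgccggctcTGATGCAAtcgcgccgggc

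MTHFD1L and SLC1A5 had both motifs, those of SLC1A5 at different starts. The CACGTG window of MTHFD1L was acgcccggctcCACGTGcgcagccggcc, and it overlaps the TGATGNAA window above. SLC7A5, whose mRNA fell and which had a MYC peak in both DMSO libraries, is shown with the 240 bases that end 10 bases before its RefSeq start, in GRCh38.p14, with CACGTG in capitals.

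SLC7A5, chr16:87869518-87869757 (- strand): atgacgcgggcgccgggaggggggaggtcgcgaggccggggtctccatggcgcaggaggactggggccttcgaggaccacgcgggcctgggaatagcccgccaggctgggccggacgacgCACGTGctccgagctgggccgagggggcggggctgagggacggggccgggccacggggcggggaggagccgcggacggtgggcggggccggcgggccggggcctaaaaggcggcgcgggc

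Its motif is the SLC7A5 site outside the gene shown above, in another build.

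ATAC-seq maps open chromatin. At 24 h 38 of the 41 members had a peak within 1000 bases of a start site in all 6 libraries, 92.7% against 63.6% of all genes. TRIB3 and PPP1R15A had one in all 3 dTAG47 libraries and in DMSO libraries 1 and 2, but not in DMSO library 3, whose list is the shortest with 28429 peaks. AMT had none in any library. The background of all genes, unlike the members, includes genes below the RNA-seq count filter, so these shares are not like for like. SLC19A1 and SLC7A5, whose mRNA fell, had a peak in every library of both groups.

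Genes of neighbouring pathways, taken as further lists, changed in DTMYC cells as follows, where 4.44% of all genes tested fell and 4.27% rose. Of 20 other one-carbon and transsulfuration genes tested, 1 fell and none rose. It was CBS, which condenses homocysteine with serine, with 146, 140.0 and 134 CPM in dTAG47 libraries, against 197, 184 and 198 CPM in DMSO libraries, a log2 change of -0.46 ± 0.08 (SE) (edgeR, adjusted p = 0.00529). Of 16 other amino-acid carriers 4 fell and 1 rose. SLC16A10, a carrier of aromatic amino acids, had 3.86, 3.99 and 4.22 CPM in dTAG47 libraries, against 6.76, 7.25 and 8.18 CPM in DMSO libraries, at -0.88 ± 0.12 (SE) (edgeR, adjusted p = 0.0023). SLC43A1, another carrier of large neutral amino acids, fell by 0.57, and SLC7A8, the LAT2 relative of SLC7A5, rose by 0.55 on the log2 scale, with 2.76, 2.88 and 3.09 CPM in dTAG47 libraries, against 2.06, 1.81 and 2.06 CPM in DMSO libraries. Of 12 eIF2 kinases, eIF2B subunits and partners 1 fell, EIF2B5 at -0.32. Of 17 other ATF4 targets CEBPD (-0.60) and EIF4EBP1 (-0.42) fell and none rose. Of 13 endoplasmic reticulum stress genes of the ATF6 and IRE1 arms 1 rose, DNAJB9 at 0.55, and none fell. In parental cells none of the genes of these 5 lists passed the test, where 0.127% of all genes did.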

How the data were processed

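Members and lists were chosen with earlier results of these data known. Deposited RNA-seq values are whole read counts for each gene, and deposited PRO-seq values are counts in promoter-proximal regions and in gene bodies. The deposited PRO-seq table also has a gene body density, a signal that equals the count over a length and was not used for tests. Each deposited peak list gives a score per peak, and its depth is unknown. Tools listed in the submitters' processing notes are cutadapt, STAR, Bowtie2, featureCounts, MACS2, DiffBind and DESeq2, with hg19 and no roles, and strandedness is not given in the sources used here.

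Tests on counts used edgeR 4.0.16 under R 4.3.3 (filterByExpr, TMM, two-sided quasi-likelihood test, Benjamini-Hochberg over all genes, threshold 0.05), 12 RNA-seq libraries in 1 fit and PRO-seq apart, after checks on simulated data. Alternatives were other size factors, no filter, DESeq2 1.42.0, limma 3.58.1, a replicate block, fits of 6 libraries and leaving out each library. CPM use effective library sizes. Peaks were set against GENCODE start sites in GRCh37. In the annotation 12 members have pseudogenes named after them, and 9 have over 10% of exon bases under antisense exons. Genes were named with every library's value if called in the 2 dTAG47 contrasts or their difference, or among the 3 smallest p in a PRO-seq comparison, with up to 3 called genes of each other list. ATF4, SLC25A32, ALDH1L2, CHAC1, PHGDH, SLC38A1 and MTR, named with library values besides, were chosen after their values were seen. IgG ChIP-seq was not analysed here.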

Additional observations from a re-analysis of the deposited data

Results flagged for a closer look

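The response to dTAG47 differed between DTMYC and parental cells for 5 members by the test of the difference itself (edgeR, adjusted p under 0.05). The DTMYC response minus the parental response was -0.47 for GLDC, -0.63 for SLC19A1, 0.68 for SLC1A4, -0.59 for SLC7A5 and -1.96 for STC2 on the log2 scale. Over the 17 alternatives the highest adjusted p was 0.13 for GLDC, SLC19A1, SLC1A4 and SLC7A5 and 0.148 for STC2, and the lowest ranged between 0.000165 and 0.014. None of the 5 changed direction under any of them.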

How the results depend on the processing

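The 12 members called in DTMYC cells became 11 to 13 with relative log expression size factors, no filter, DESeq2 and the replicate block. They were 26 with limma voom and library quality weights and 24 in a fit of the 6 DTMYC libraries, and 5 to 21 with 1 library left out, highest without parental DMSO library 3. Parental calls were 0, but 7 with quality weights and 0 to 9 with 1 library left out. The 5 calls on the difference between the lines became 0 with relative log expression size factors, 3 with no filter, 0 with the replicate block, 5 with DESeq2, 18 with quality weights and 0 to 15 with 1 library left out. Calls between the lines stayed at 27 to 34 in DMSO and 32 to 38 in dTAG47. Of 216 refits of the 12 genes 43 lost the call, of 85 for the difference 58, and no gene changed direction in any of these.

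Over all genes, 1167 called in DTMYC cells became 6217 with quality weights, 4593 in 6 libraries and 329 to 3951 with 1 left out. The 17 of parental cells became 7 with relative log expression, 299 with DESeq2, 5 with the block, 1790 with quality weights, 0 in 6 libraries and 0 to 2718 with 1 left out. The 159 for the difference, 80 higher and 79 lower, became 63 (38 higher and 25 lower) with relative log expression, 102 with no filter, 583 with DESeq2, 79 with the block, 2936 with quality weights and 5 to 2417 with 1 left out. The cause of these shifts was not tested.

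In RNA-seq correlations of same-numbered deviations ran between -0.20 and 0.37. Between parental DMSO and parental dTAG47 libraries they were 0.32, 0.05 and 0.37 for replicates 1, 2 and 3. Whether the replicate numbers pair RNA-seq libraries is not settled by these values. In PRO-seq the correlation was 0.64 over 2 pairs, but no label states a pairing. With the block, which left 1 residual degree of freedom, 25 members passed in gene bodies, 5 higher and 20 lower, and 2 in promoter-proximal regions, against 4360 and 262 of all genes. DESeq2 called 2 members and 67 genes in gene bodies, and 2 genes in promoter-proximal regions. With 1 PRO-seq library left out, 0 to 1 members and 5 to 44 genes passed in gene bodies, and 1 to 5 genes in promoter-proximal regions; with no filter 2 genes passed in each. Pausing was not refitted with DESeq2 or the block.

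Members with a MYC peak in both DMSO libraries were 10, and 22 with a peak in either; leaving out 1 DMSO library gave 10 to 22. Other windows and a score of at least 50 gave 7 to 10 for MYC and 31 to 38 for ATAC-seq. ChIP-seq and ATAC-seq depth is unknown.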

Other observations

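Genes of neighbouring pathways also differed between the lines in DMSO. Among 13 endoplasmic reticulum stress genes of the ATF6 and IRE1 arms 8 were higher and 2 lower in DTMYC cells, and among 12 eIF2 kinases, eIF2B subunits and partners 8 were higher and 2 lower, where 36% of all genes were higher and 37.3% lower. Of 16 other amino-acid carriers 8 were higher and 4 lower. SLC7A8, picked here after its values were seen as the lowest of these lists, had 2.06, 1.81 and 2.06 CPM in DTMYC DMSO libraries, against 54.7, 62.2 and 48.6 CPM in parental DMSO libraries, a log2 difference of -4.79 ± 0.12 (SE) (edgeR, adjusted p = 9.32e-12). MAT1A, the liver form of the enzyme that MAT2A encodes, was picked likewise. It had 1, 2 and 6 counts in DTMYC DMSO libraries, against 76, 63 and 57 counts in parental DMSO libraries.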
